A study of Homo sapiens with 6 samples.

Results

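The metallothionein and zinc response genes were followed after silencing of the lncRNA PVT1 in SK-OV3, an established line of human ovarian cancer cells. The set held 9 genes, namely the metallothioneins MT1A, MT1E, MT1F, MT1G, MT1M, MT1X and MT2A, the transcription factor MTF1 and the zinc exporter SLC30A1. They were picked out by gene symbol from the 59653 genes of the count table, with no threshold on their values. The set itself was put together with earlier results of these data known. Cells labelled wildtype were transfected with a pool of siRNAs against PVT1 (siPVT1, 3 libraries) or with a non-targeting pool (siControl, 3 libraries), and RNA was taken after 48 h. The results therefore rest on 1 cell line and 1 siRNA pool against PVT1. The labels do not say whether the 3 libraries of a group came from separate cultures, so p-values measure the spread between these libraries, which may be technical.

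Metallothioneins are small, cysteine-rich proteins that bind zinc and copper and also take up cadmium. MTF1 senses free zinc in the cell, enters the nucleus and binds metal response elements in the promoters of the metallothionein genes and of SLC30A1, so that zinc is stored and pumped out when it is in excess. Glucocorticoids, oxidants and hypoxia are also known to raise metallothionein mRNA in many cell types.

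The total count of a library lay between 28383171 and 35059576. The siRNA effect was tested with edgeR's quasi-likelihood method, with Benjamini-Hochberg adjustment over the 19008 genes that passed the filter on low counts. A gene was called where the adjusted p was under 0.05 and the log2 fold change was 1 or more in size. PVT1 itself had normalized counts of 3289, 4080 and 3368 in siControl and 2344, 2105 and 2057 in siPVT1. Its log2 fold change was −0.72 (SE 0.097, adjusted p = 0.000342), lower in every siPVT1 library but short of the fold threshold. Of 8 markers of an epithelial ovarian carcinoma line, KRT8 (8552 ± 683 normalized counts in siControl, SD, n = 3), KRT18, KRT7, PAX8 and ERBB2 were well detected. EPCAM (96.4 ± 31.2), CDH1 (27.1 ± 5.65) and MUC1 (6.31 ± 2.91) were low in siControl, and CDH1 had 0 counts in siPVT1 replicate 3.

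In the siPVT1 cells, every metallothionein gene of the set with enough counts to be tested rose, from 2.22-fold for MT1E to 4.90-fold for MT1F. The zinc sensor MTF1 did not pass the test, and the zinc exporter SLC30A1, also a known MTF1 target, was lower in siPVT1. Of the 9 genes, 7 were tested. The number called higher was 5, all of them metallothioneins, where 11.8% of all tested genes were called higher. None of the 7 was called lower, where 9.64% of all genes were, although SLC30A1 had an unadjusted p under 0.05 (1 gene) and DESeq2 also called 0. The median log2 fold change of the 7 genes was 1.31, against 0.00138 over all genes tested. Because RNA was taken from whole cultures, a change in the share of cells that express a gene and a change in RNA per cell cannot be told apart.

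Promoters of the genes the results turn on are shown first, since metal response elements are how MTF1 recognises its targets. Each window runs from 250 bases before to 50 bases after the annotated start, 5′ to 3′ on the strand of the gene, from RefSeq on GRCh38.p14. The table used here held promoters for 4 of the 9 genes (MT2A, MT1X, SLC30A1 and MTF1). MT1H, a gene of the same family with an estimated count of 0 in every library, is shown beside them. Capitals mark the core of a metal response element, TGCACNC or TGCGCNC on either strand. The windows lie at chr16:56608334-56608633 (MT2A, plus strand), chr16:56682220-56682519 (MT1X, plus strand), chr1:211579112-211579411 (SLC30A1, minus strand) and chr16:56669564-56669863 (MT1H, plus strand).
MT2A: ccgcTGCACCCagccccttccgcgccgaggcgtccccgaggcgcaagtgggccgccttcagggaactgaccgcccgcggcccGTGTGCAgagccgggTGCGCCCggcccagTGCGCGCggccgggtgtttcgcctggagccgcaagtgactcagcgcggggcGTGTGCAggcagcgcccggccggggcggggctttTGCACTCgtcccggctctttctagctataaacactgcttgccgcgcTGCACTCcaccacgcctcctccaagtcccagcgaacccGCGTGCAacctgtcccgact
MT1X: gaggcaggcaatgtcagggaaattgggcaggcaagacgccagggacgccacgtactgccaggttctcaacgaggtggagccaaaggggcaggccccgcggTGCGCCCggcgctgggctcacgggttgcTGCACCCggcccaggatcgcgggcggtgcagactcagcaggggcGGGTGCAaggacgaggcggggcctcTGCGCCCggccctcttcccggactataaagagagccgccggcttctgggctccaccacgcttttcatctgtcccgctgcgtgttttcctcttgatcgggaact
SLC30A1: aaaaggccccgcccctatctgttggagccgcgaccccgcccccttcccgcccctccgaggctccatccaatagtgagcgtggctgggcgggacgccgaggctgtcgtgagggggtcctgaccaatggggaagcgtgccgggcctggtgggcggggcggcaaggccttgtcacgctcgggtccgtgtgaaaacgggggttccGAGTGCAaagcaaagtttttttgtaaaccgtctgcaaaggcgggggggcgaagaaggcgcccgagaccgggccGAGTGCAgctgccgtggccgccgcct
MT1H: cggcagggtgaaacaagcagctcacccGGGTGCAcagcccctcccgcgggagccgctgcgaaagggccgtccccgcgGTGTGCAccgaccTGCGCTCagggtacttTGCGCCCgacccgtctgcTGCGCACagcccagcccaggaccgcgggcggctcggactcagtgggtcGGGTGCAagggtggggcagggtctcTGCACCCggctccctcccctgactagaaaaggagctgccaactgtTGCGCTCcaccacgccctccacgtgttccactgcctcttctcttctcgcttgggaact

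The MT2A promoter held 8 matches to the core, at positions −246, −168, −153, −139, −88, −54, −8 and 31 from the start. MT1X held 4, at −150, −122, −78 and −53. SLC30A1 held 2, at −49 and 25, and the MTF1 promoter held 0. Of 35116 RefSeq promoters of the same length, 29.6% had at least 1 match, 8.6% at least 2, 0.601% at least 4 and 7 promoters (0.0199%) at least 8. MT1H also held 8 matches and had an estimated count of 0 in every library. MT1B and MT4 held 3 matches each and likewise had 0 counts throughout.

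Other motifs were searched in the same windows. The core of an antioxidant response element, TGACNNNGC, matched 1 time in MT2A, MT1X and SLC30A1 and 0 times in MTF1, where 13.3% of all promoters had a match. The core of a hypoxia response element, ACGTG or GCGTG, matched 3 times in MT2A, MT1X and SLC30A1 and 2 times in MTF1, where 48.4% of all promoters had at least 1 match and 10.1% at least 3. In MT2A the hypoxia matches at −90 and 31 overlapped metal response element matches at −88 and 31. A match is a string of letters and not a shown binding site.

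**Figure D1:**
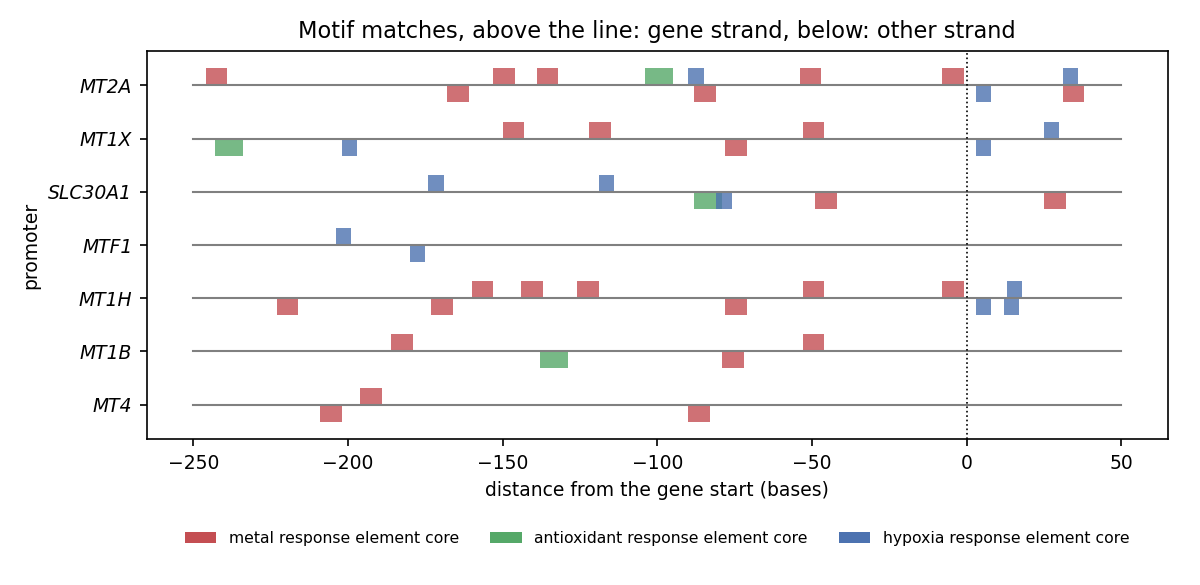
Motif matches in 7 promoters, by distance in bases from the annotated gene start (horizontal axis); boxes above a line lie on the strand of the gene and boxes below on the other strand. MT2A and MT1H each carry 8 metal response element cores (red), SLC30A1 carries 2 and MTF1 carries 0.

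MT2A, the most abundant metallothionein of the set, had normalized counts of 6181, 5128 and 6205 in siControl and 16631, 15000 and 13739 in siPVT1. The lowest siPVT1 library thus stood above the highest siControl library. The mean went from 5838 ± 615 to 15124 ± 1450 (SD, n = 3), a log2 fold change of 1.37 (SE 0.099, 95% interval 1.14 to 1.60, adjusted p = 1.4e-05), or 2.59-fold. MT2A lies at chromosome 16, 56608584 to 56609497 on the plus strand (GRCh38, GENCODE v44) and has 3 exons.

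MT1E, an isoform gene of the MT1 group, had 1057, 856 and 1020 normalized counts in siControl and 2346, 2233 and 1952 in siPVT1. The groups did not overlap, and the log2 fold change was 1.15 (SE 0.10, 95% interval 0.92 to 1.39, adjusted p = 3.91e-05). MT1X, at the far end of the gene cluster, had 264, 231 and 269 normalized counts in siControl and 710, 592 and 599 in siPVT1. Its groups were also apart, with a log2 fold change of 1.31 (SE 0.11, 95% interval 1.07 to 1.56, adjusted p = 2.57e-05), close to that of MT2A.

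MT1A and MT1F were expressed at a low level. MT1A had 31.3, 18.1 and 21.2 normalized counts in siControl and 70.0, 68.7 and 52.5 in siPVT1. Its log2 fold change was 1.43 (SE 0.26, 95% interval 0.83 to 2.02, adjusted p = 0.00174), on raw counts of 18 to 63 per library. MT1F had 13.3, 9.07 and 20.3 normalized counts in siControl and 64.4, 75.2 and 72.2 in siPVT1, which gave a log2 fold change of 2.29 (SE 0.28, 95% interval 1.64 to 2.95, adjusted p = 0.000219). Both genes were higher in every siPVT1 library, as were MT2A, MT1E and MT1X, a pattern that 33.2% of all tested genes showed.

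MT1G and MT1M were near or at 0. MT1G had raw counts of 0, 1 and 1 in siControl and 0 in each siPVT1 library. MT1M had 0 in each siControl library and 0, 1 and 2 in siPVT1. A count of 0 allows up to 3 counts, which is 0.0856 to 0.106 CPM (counts scaled to a common library total) in these libraries and covers counting error only, so no fold was computed and a difference was not detectable at this depth.

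MTF1, the zinc-sensing transcription factor, had 2220, 2043 and 2133 normalized counts in siControl and 1919, 2004 and 2294 in siPVT1. The groups overlapped, and the log2 fold change was −0.04 (SE 0.080, 95% interval −0.22 to 0.14, adjusted p = 0.693). Without siPVT1 replicate 3, the highest of its group, MTF1 was at −0.14 with an adjusted p of 0.0346 in the same edgeR test. MTF1 activity is set largely by zinc binding and nuclear entry, which mRNA counts do not measure.

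SLC30A1 (ZnT1), which exports zinc across the plasma membrane, had 3212, 2993 and 3294 normalized counts in siControl and 2802, 2698 and 2483 in siPVT1. All siPVT1 libraries were below the siControl libraries, as for 32.3% of all tested genes. The log2 fold change was −0.25 (SE 0.069, 95% interval −0.41 to −0.09, adjusted p = 0.0142), or 1.19-fold lower, short of the fold threshold. At the adjusted p alone, 1 gene of the set was lower and 5 were higher, beside 28.4% of all tested genes that were lower and 29.5% that were higher. Without siControl replicate 3, the highest library, the value was −0.23 and the adjusted p was 0.0582.

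**Figure D2:**
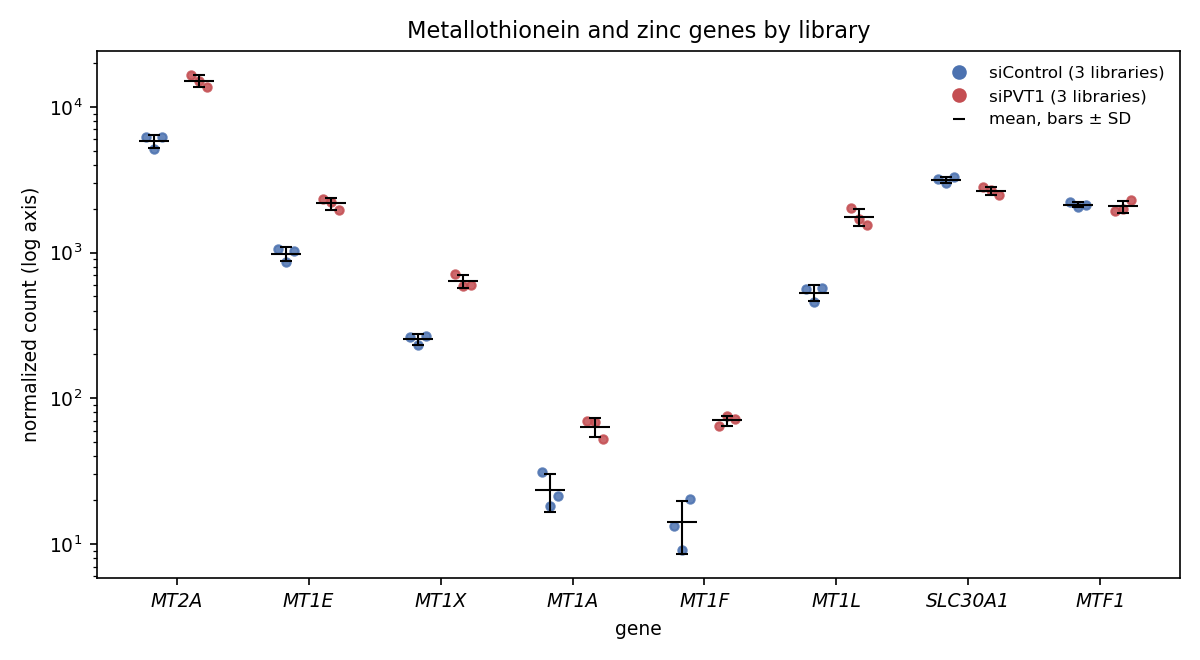
Normalized counts (log axis) of 7 tested genes of the set and of the pseudogene MT1L in each library; points are libraries (blue siControl, red siPVT1, 3 each), and lines give the mean with bars of ± SD. The metallothionein genes shown have siPVT1 points above the siControl points, SLC30A1 has them below, and the MTF1 points overlap.

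**Figure D3:**
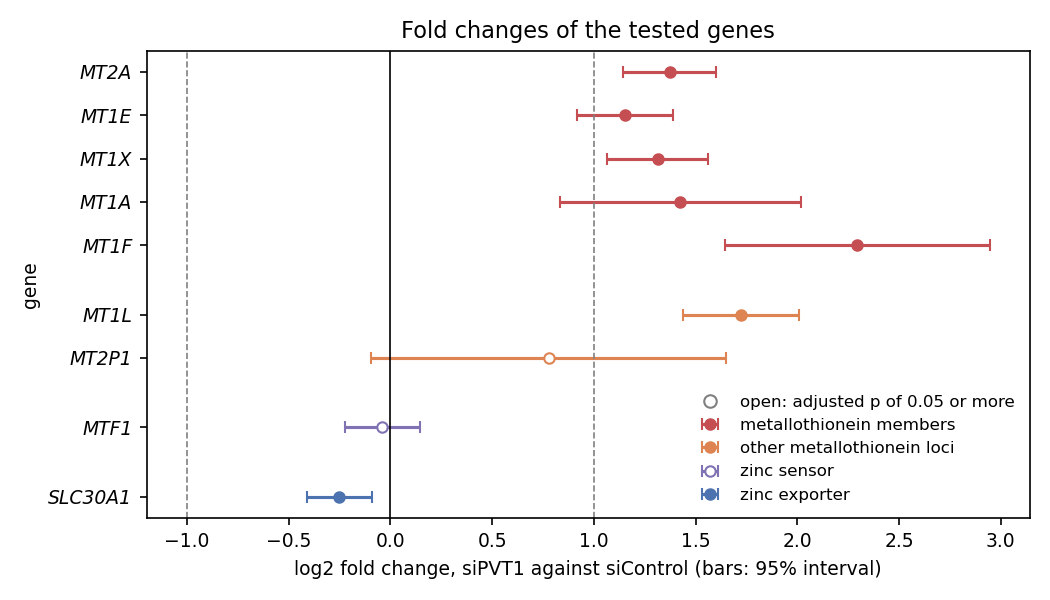
Log2 fold change of siPVT1 against siControl (horizontal axis) with its 95% interval, for tested genes of the set and 2 further metallothionein loci; filled points have an adjusted p under 0.05, and dashed lines mark the fold threshold of 1. The 5 metallothionein genes lie between 1.15 and 2.29, SLC30A1 at −0.25 and MTF1 at −0.04.

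Levels were compared between genes as CPM per kilobase of the canonical transcript, with lengths from GENCODE v44. In siControl the order of these levels was MT2A (469 ± 49.4, SD, n = 3), MT1E (42.2 ± 4.61), MT1X (20.3 ± 1.66), SLC30A1 (17.3 ± 0.851), MTF1 (8.65 ± 0.358), MT1A (1.92 ± 0.562) and MT1F (1.08 ± 0.429). In siPVT1 the first 5 kept this order, with MT2A at 1215 ± 117, MT1E at 94.0 ± 8.75, MT1X at 50.5 ± 5.28, SLC30A1 at 14.6 ± 0.889 and MTF1 at 8.41 ± 0.798. MT1A and MT1F overlapped in both groups and could not be ranked, at 5.18 ± 0.792 and 5.35 ± 0.421 in siPVT1. MT2A was thus the main metallothionein transcript in both groups, and MT1X stood a little above SLC30A1 in siControl but well above it in siPVT1.

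Other loci of the family were examined as a list of 14 further metallothionein genes and pseudogenes, of which 13 were in the table and 2 could be tested. MT1B, MT1H, MT1HL1, MT3, MT4, MT1CP and MT1P1 had 0 counts in every library. MT1DP, MT1P3 and MT1XP1 had at most 3 counts in a library, and MT1JP had 0 to 5. MT1L, annotated as a transcribed pseudogene between MT2A and MT1E, had 567, 457 and 570 normalized counts in siControl and 2015, 1707 and 1553 in siPVT1. It was higher in every siPVT1 library and called higher, at a log2 fold change of 1.72 (SE 0.12, adjusted p = 1.36e-05). MT2P1 was at 9.51 ± 3.20 and 16.6 ± 4.68 normalized counts with overlapping groups (log2 fold change 0.78, adjusted p = 0.113).

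Members of this family are close in sequence, and the counts came from an estimate that divides reads between similar transcripts. In the GENCODE v44 transcripts, none of the 75-base windows of MT2A, MT1A and MT1F occurred in another gene. Pooled over all annotated transcripts of a gene, with matches on either strand, the share of windows found in another gene was 1.42% for MT1E and 14.7% for MT1X. The share within the canonical transcript alone was not computed. For MT1L it was 100%, because a second, overlapping gene without a symbol holds the same sequence, so the MT1L values are uncertain.

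The summed counts of the metallothionein family do not depend on how reads were divided within it. The sum of 20 loci was 8128, 6707 and 8118 normalized counts in siControl and 21860, 19705 and 17986 in siPVT1. Against the total count of the library this was 234.5 to 272.6 CPM in siControl and 547.4 to 665.7 CPM in siPVT1. The log2 fold change was 1.38 (SE 0.10, 95% interval 1.14 to 1.61, adjusted p = 1.49e-05), or 2.59-fold. The two-sided exact permutation test over libraries gave p = 0.1, the smallest that 3 libraries against 3 can give.

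MT2A made up 76.3% ± 0.226 of the metallothionein counts in siControl and 76.2% ± 0.168 in siPVT1 (SD, n = 3), with overlapping libraries. The share of MT1X was 3.33% ± 0.0974 and 3.19% ± 0.17, again with overlap. MT1E had a smaller share in every siPVT1 library, 11.0% ± 0.318 against 12.8% ± 0.222. MT1F and MT1L had larger shares in every siPVT1 library, at 0.359% ± 0.0567 against 0.183% ± 0.0596 for MT1F and 8.84% ± 0.329 against 6.94% ± 0.107 for MT1L.

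Ratios to MT2A within a library do not depend on the scaling between libraries. The log2 ratio of MT1E to MT2A was lower by 0.22 in siPVT1 (difference −0.22), that of MT1F was higher by 1.01 and that of MT1L by 0.35, with no overlap between groups. Those of MT1X (difference −0.06) and MT1A (0.09) overlapped. For SLC30A1 and MTF1 the differences were −1.63 and −1.42. These 2 differences largely hold the log2 fold change of MT2A itself (1.37), and a gene that did not change would also have a lower ratio. Of the 7 ratios compared, the 5 without overlap each had an exact permutation p = 0.1, the smallest possible, and an adjusted p of 0.14. The share of all tested genes whose ratio to MT2A was without overlap was not computed. This exact test cannot go under 0.05 with 3 libraries against 3, and no other test of the ratios was run.

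**Figure D4:**
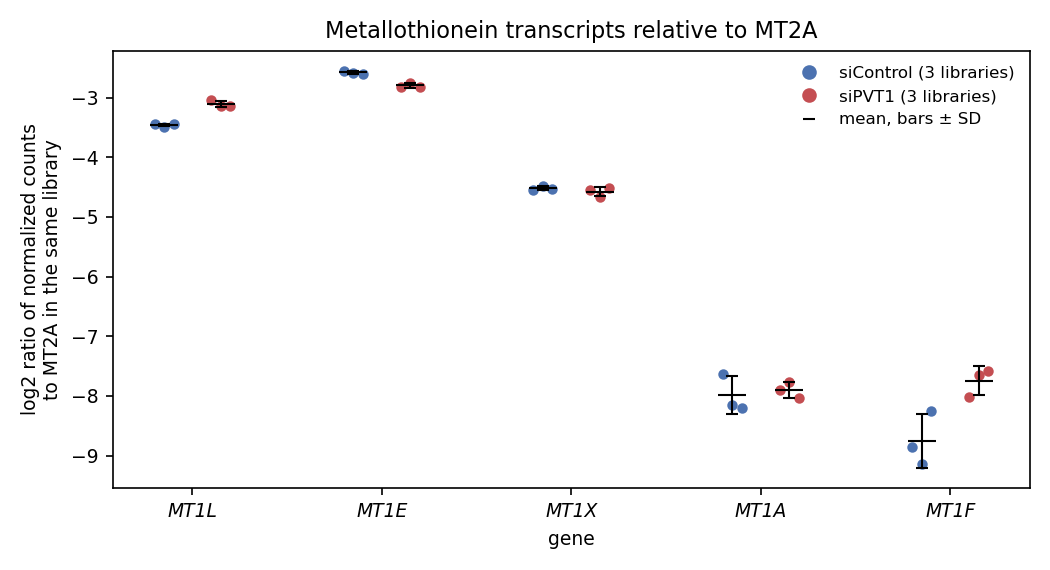
Log2 ratio of each metallothionein transcript to MT2A in the same library (vertical axis); points are libraries (blue siControl, red siPVT1, 3 each), and lines give the mean with bars of ± SD. MT1L and MT1F are higher and MT1E lower in siPVT1, while the points of MT1X and MT1A overlap.

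MT2A was used to look for genes with the same profile, by the root mean square difference of centred log2 CPM over the 6 libraries, among 19001 tested genes outside the set. The closest were IDH2, the mitochondrial NADP-dependent isocitrate dehydrogenase (difference 0.0431, log2 fold change 1.35), SEC14L2, a lipid-binding protein (0.0468, 1.40), and CRAT, the carnitine acetyltransferase (0.0468, 1.43). This likeness and the fold change rest on the same contrast of 2 groups.

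Most zinc transporters of the SLC30 (ZnT) family, all called exporters here, move zinc out of the cytosol into vesicles, the secretory pathway or the medium. Of 9 family members other than SLC30A1, 5 were tested, all 5 had lower values in every siPVT1 library (32.3% of all tested genes), and all 5 were lower at the adjusted p (28.4% of all tested genes). None was called at the fold threshold by edgeR or DESeq2 (unadjusted p under 0.05 in 5). Their median log2 fold change was −0.53, against 0.00138 over all genes tested. SLC30A4, a vesicle transporter, went from 220 ± 29.7 to 121 ± 12.3 normalized counts (log2 fold change −0.86, adjusted p = 0.000895). SLC30A6 and SLC30A7, which supply zinc to the early secretory pathway, were at −0.60 (adjusted p = 0.000375) and −0.53 (0.000309). SLC30A5, the partner of SLC30A6, was at −0.33 (0.00577) and SLC30A9 at −0.16 (0.0371). SLC30A9 no longer passed when any 1 siControl library was left out, with adjusted p of 0.0628 to 0.107.

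Zinc importers of the SLC39 (ZIP) family bring zinc into the cytosol. Of 14 members, 11 were tested, 6 were higher and 2 were lower at the adjusted p, and 3 did not pass, beside 29.5% of all tested genes higher and 28.4% lower. None was called at the fold threshold by edgeR or DESeq2 (unadjusted p under 0.05 in 6 higher and 2 lower), and the median log2 fold change was 0.18. SLC39A11 went from 457 ± 20.3 to 763 ± 20.5 normalized counts (log2 fold change 0.74, adjusted p = 6.86e-05), SLC39A1, an importer of the plasma membrane, was at 0.37 (0.00219) and SLC39A9 at 0.33 (0.00116). SLC39A4, SLC39A10 and SLC39A8 were at 0.47 (0.0297), 0.22 (0.0135) and 0.18 (0.0342).

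SLC39A3 was lower, from 379 ± 33.4 to 207 ± 11.4 normalized counts (log2 fold change −0.87, adjusted p = 0.00016), as was SLC39A13 at −0.32 (0.0123). SLC39A6, SLC39A14 and SLC39A7 did not pass, at 0.13, 0.12 and 0.04, and all 3 were below 0 when libraries were scaled by their total count. That scaling moved the median of all genes from 0.00138 to −0.148 and left 3 importers higher at the adjusted p (SLC39A1, SLC39A9 and SLC39A11), with the same 2 lower, and all 5 exporters lower. The 3 importers with an adjusted p of 0.0135 to 0.0342 also failed it without 1 or another library, and the number higher fell to 3 without siControl replicate 3 or siPVT1 replicate 2.

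**Figure D5:**
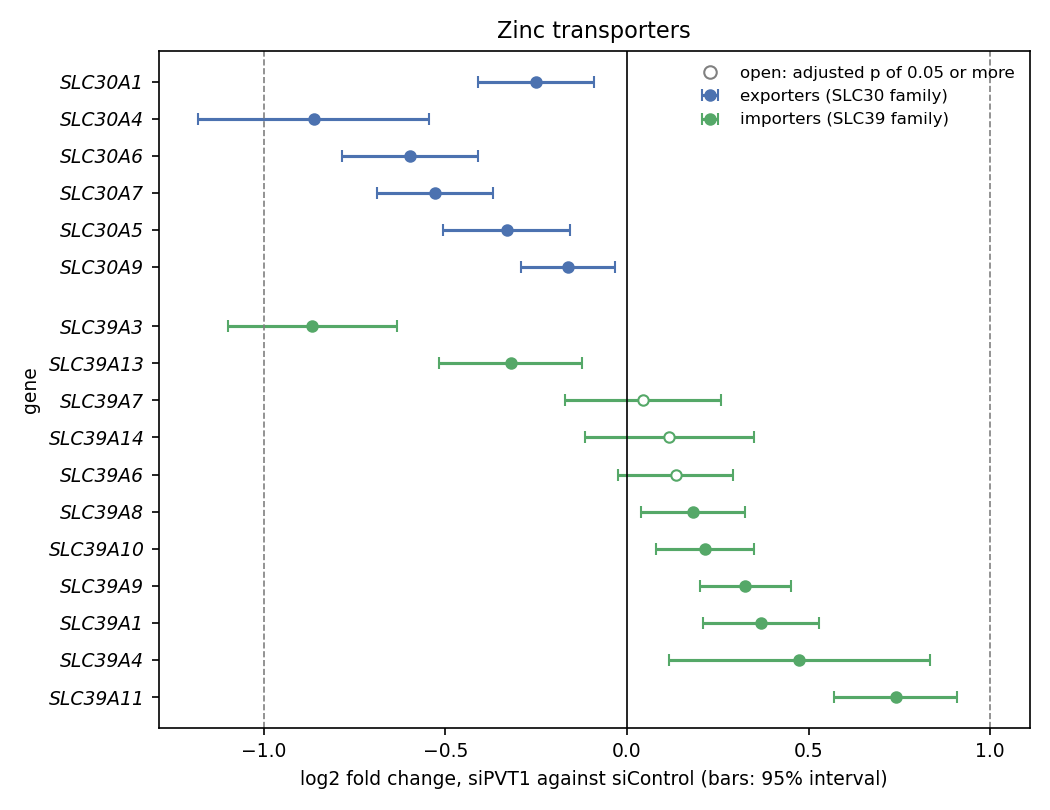
Log2 fold change of siPVT1 against siControl (horizontal axis) with its 95% interval for zinc exporters (blue) and importers (green); filled points have an adjusted p under 0.05, and dashed lines mark the fold threshold of 1. All 6 exporters, SLC30A1 included, lie below 0, and the importers range from −0.87 to 0.74, of which SLC39A6, SLC39A7 and SLC39A14 turn below 0 with total count scaling.

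The metallothionein genes lie together on the long arm of chromosome 16, from 56565073 to 56684196 (GRCh38, 16 genes from MT4 to MT1X). Of 8 neighbouring genes on both sides, 7 were tested, 2 were called higher and 1 lower, beside 11.8% and 9.64% of all tested genes. GNAO1, a G protein alpha subunit gene, went from 21.0 ± 1.64 to 78.6 ± 4.14 normalized counts (log2 fold change 1.90, adjusted p = 5.49e-05). BBS2, a cilium gene whose annotated span reaches past MT4, was at 1.14 (0.00165), and OGFOD1, a prolyl hydroxylase of a ribosomal protein, was at −1.05 (0.000256). NUP93 (−0.05) and HERPUD1 (−0.14) did not pass the adjusted p, and NUDT21 was at −0.20 (0.04). Without siPVT1 replicate 1 the fold threshold was missed by BBS2 (0.91) and OGFOD1 (−0.97), and without siPVT1 replicate 2 by OGFOD1 (−0.99).

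Genes that metals and oxidants are known to raise together with metallothioneins were lower. In a list of 10 such genes, of glutathione synthesis, thioredoxin and heat shock, all 10 were lower at the adjusted p and 9 were called lower. Over all tested genes 28.4% were lower at the adjusted p and 9.64% were called lower. The median log2 fold change of the list was −2.32. SLC7A11, the cystine transporter, went from 35540 ± 1059 to 3621 ± 631 normalized counts (−3.29, adjusted p = 1.05e-06). HSPA6, a heat shock gene with little expression in unstressed cells, went from 335 ± 33.2 to 8.66 ± 3.22 (−5.25, 1.13e-06), and SRXN1, a sulfiredoxin, was at −2.59 (1.65e-06). Targets of the hypoxia response were higher. All 10 of a list were called higher, beside 11.8% of all tested genes. Their median was 2.45, and examples were BNIP3 at 3.13 (1.74e-07), PFKFB4 at 3.87 (7.69e-07) and PDK1 at 1.64 (1.45e-06). CA9 of this list, named after its values were seen, had a raw count of 1 in each siControl library and 30, 37 and 19 in siPVT1. It passed the filter only through the siPVT1 libraries, so it could only be tested as higher. The number of the list called higher was 9 when any 1 siPVT1 library was left out. Both lists were written with earlier results of these libraries known, so their directions are a description, and their part in the metallothionein result was not tested.

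Markers of other cell types were read beside these results. Of 8 carcinoma line markers all were tested and 0 were called by edgeR. At the adjusted p, as at an unadjusted p under 0.05, 3 were higher (KRT8, KRT18 and PAX8, the last at 0.9995 just under the fold threshold) and 2 were lower (KRT7 at −0.51 and ERBB2 at −0.43). Their median log2 fold change was −0.11, and their summed level was 26200 to 29360 normalized counts in siControl and 31910 to 34510 in siPVT1. Of 4 endothelial markers all 4 were called higher, with a sum of 2061 to 2105 in siControl and 8642 to 10900 in siPVT1, most of it CDH5 (1993 ± 7.07 and 9290 ± 1105). Of 6 fibroblast markers 4 were tested and 3 called higher (COL1A1, PDGFRB and PDGFRA), with sums of 216.5 to 228.7 and 805.9 to 860.9. LUM was at −1.15 with overlapping groups (adjusted p = 0.132). DCN had at most 3 counts in every library, and COL1A2 was below the filter. Over all tested genes 11.8% were called higher and 9.64% lower, and at the adjusted p 29.5% were higher and 28.4% lower. Of 5 leukocyte markers 2 were tested and 0 called (0 also at an unadjusted p under 0.05 in edgeR), CD3E was at 0 in every library, and the sums were 600.7 to 796 and 591.3 to 904.1. The part of these genes in the metallothionein result was not tested.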

How the data were processed

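RNA sequencing of 6 libraries of SK-OV3 cells was used. The authors aligned single-end reads with STAR 2.7.3a to GRCh38.p13, quantified genes with Salmon 0.14.1 (versions from the submitters' processing notes). The deposited values are estimated counts for each gene symbol, whole and not normalized. The strand setting is not given in the sources used here. These counts went into the quasi-likelihood test of edgeR 4.0.16 in R 4.3.3, with TMM scaling and Benjamini-Hochberg adjustment. Of 59653 genes, 19008 reached 5 normalized counts in 3 or more libraries and were tested. On simulated data, edgeR recovered 200 of 200 changed genes with 2 false calls. The planted changes were all larger than the fold threshold and lay only in genes above a minimum mean count. All genes had the same spread setting, so high recovery was built into these settings. That total was not split by expression level or fold change. Recovery at the levels and fold changes of the metallothionein genes was not tested. The total count of 28383171 to 35059576 per library limits precision for genes with few counts. Intervals are 95%.

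Named genes were all 9 of the set, PVT1, family members, transporters, cluster neighbours, the 3 genes closest to MT2A, and of each further list the 3 with the smallest p in each direction past both thresholds. Values of 2 list genes are not reported here. The set of 9 genes and the lists were put together with earlier results of these data known, and members were then matched by symbol alone. Alternatives were DESeq2 1.42.0, its size factors, total count scaling, no filter, filterByExpr, a replicate block, each library left out and the adjusted p alone. Positions, lengths and shared windows came from GENCODE v44, a later release than the authors' annotation, and promoters from RefSeq.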

Additional observations from a re-analysis of the deposited data

How the results depend on the processing

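The 5 metallothionein genes were called higher in every alternative run, and no gene of the set changed its call at both thresholds. With each library left out in turn, log2 fold changes were 1.29 to 1.42 for MT2A, 1.07 to 1.21 for MT1E, 1.21 to 1.35 for MT1X, 1.27 to 1.68 for MT1A, 2.06 to 2.64 for MT1F, −0.30 to −0.22 for SLC30A1 and −0.14 to −0.0019 for MTF1. With total count scaling they were 1.23, 1.01, 1.17, 1.28, 2.15, −0.40 and −0.19. The number of all genes called was 4081, and 3777 with DESeq2, 4533 without the filter and 11010 at the adjusted p alone. Total count scaling moved the share of called genes that were higher from 55.1% to 43.8%.

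Total count scaling also gave 1 neighbour called higher in place of 2 (BBS2 at 0.99), 1 zinc exporter lower (SLC30A4, −1.01), 1 zinc importer lower (SLC39A3) and 1 glucocorticoid gene lower. It turned SLC39A14 to −0.034, SLC39A6 to −0.015 and SLC39A7 to −0.10. Without the filter 1 zinc importer was called lower. The adjusted p alone gave 1 gene of the set lower, 2 neighbours lower, 3 copper genes higher and 3 lower, 4 glucocorticoid genes higher and 2 lower, 5 exporters lower, and 6 importers higher and 2 lower. With 1 library left out, neighbours called were 1 to 2 higher and 0 to 1 lower, and glucocorticoid genes 2 to 4 higher and 0 to 1 lower. NUP93 ranged from −0.196 to 0.0043, turning at 0.0043 and 0.0021 without siPVT1 replicates 1 and 2, SLC39A14 from −0.033 to 0.18 and SLC39A7 from −0.078 to 0.11, both turning without siPVT1 replicate 3. The causes were not tested.

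The main fit did not pair libraries by replicate number. Deviations of same-numbered libraries correlated at −0.041, 0.0378 and 0.00366 over 19008 genes, and not every library correlated best with its own number. Correlations over all genes cannot show whether same-numbered libraries shared a culture or batch. With a replicate block, 3924 genes were called and the metallothionein sum was at 1.38 and PVT1 at −0.72, with no change of call at both thresholds among the genes named. At the adjusted p alone the block left 4 exporters lower and 5 importers higher. Depth limits MT1A, MT1F, MT1G, MT1M and MT2P1.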

Other observations

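Copper, which metallothioneins also bind, was followed through 12 genes of copper uptake, delivery and export, all of them tested. None was called at both thresholds by edgeR or DESeq2, 3 were higher and 3 lower at the adjusted p (4 and 4 at an unadjusted p under 0.05), and the median log2 fold change was −0.17. Over all tested genes 29.5% were higher and 28.4% lower at the adjusted p, so these shares are near the background. The extremes, named after their values were seen, were ATP7B, a copper export pump, at 0.83 (238 ± 8.02 to 423 ± 69.5 normalized counts, adjusted p = 0.000804) and SCO1, a copper chaperone of cytochrome c oxidase, at −0.73 (2130 ± 80.2 to 1284 ± 217, adjusted p = 0.000843). Genes known to respond to glucocorticoids, which also raise metallothionein mRNA, were read as a list of 10, of which 9 were tested. KLF9 (2.15, 397 ± 10.5 to 1765 ± 493, adjusted p = 4.48e-05) and CEBPD (1.75, 190 ± 7.09 to 641 ± 88.6, adjusted p = 9.38e-06), both transcription factor genes, were called higher. Both thresholds called 11.8% of all tested genes higher and 9.64% lower. At the adjusted p alone 4 of the list were higher and 2 lower, beside 29.5% and 28.4% of all tested genes. The 2 lower, named after their values were seen, were FKBP5 (−0.92, adjusted p = 0.00118) and SGK1 (−0.77, adjusted p = 3.27e-05). Without siPVT1 replicate 3 the number called was 4 higher and 1 lower.

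LYZ, a leukocyte gene, stood at 248 and 86.1 normalized counts in siControl replicate 2 and siPVT1 replicate 2, against 4.61 to 18.0 in the other libraries. The siControl replicate 2 library was the lowest of its group for MT2A, MT1E, MT1X, MT1A and MT1F. Among the same genes, siPVT1 replicate 2 was the lowest of its group only for MT1X (592) and the highest for MT1F (75.2). A link between LYZ and the metallothionein counts was not tested.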
